A study of Medicago truncatula with 16 samples.

Results

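The 150 genes described here had more reads in PEG-treated 5 mm radicles (R5P) of germinating Medicago truncatula seeds than in untreated 5 mm radicles (R5) and in PEG-treated 1 mm radicles (R1P), while their level in R1P stayed near that in untreated 1 mm radicles (R1). They were chosen from the radicle values themselves. For each of the 44316 genes with a chromosome in its identifier, counts were divided by the library's sum and scaled to give CPM (counts per 1000000), and the level was taken as log2(group mean CPM + 1). A gene was kept where the level in R5P exceeded that in R5 by at least 1, the level in R1P lay within 1 of that in R1, and R5P lay above R1P, which 1093 genes met. These were ranked by the smaller of the differences R5P minus R5 and R5P minus R1P, and the first 150 were taken.

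The RNA-Seq series holds 16 libraries of cultivar A17, in 8 groups of 2 biological replicates. R5P, R5, R1P and R1 were radicles of seeds whose protruded radicle measured 5 mm or 1 mm, and C5P, C5, C1P and C1 were the cotyledons dissected at the same stages. The groups ending in P had spent 3 days in polyethylene glycol (PEG) at -1.7 MPa, in the dark at 10 °C, and the others went without PEG. The series has no group held in the cold and dark in water, so the effects of PEG and of those 3 days cannot be told apart. For all 8 groups the sources describe the tissue as desiccated, with a protocol of 72 hours of drying at 20 °C, but also as freshly harvested. They give either 50 or 100 seeds per sample. Each library pools many seeds and whole organs, and in such bulk samples fewer cells of a type and less RNA per cell cannot be told apart.

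PEG of high molecular weight draws water from tissue without entering the cells, and germinated seeds answer such osmotic stress through abscisic acid and other pathways. Desiccation tolerance (DT), the ability to survive near complete drying, is present in the mature orthodox seed and is lost after germination. In this species it can be brought back by osmotic treatment while the radicle is short but no longer once it has grown, so that R1P radicles are desiccation tolerant and R5P radicles are desiccation sensitive. The genes listed here thus answered PEG, by their selection, in the treated radicle that stays sensitive.

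The libraries held between 22012976 and 23257652 estimated counts, so that 3 counts in a library, the limit that a count of 0 allows, corresponded to 0.129 to 0.142 CPM (counting error only). The Pearson correlation of replicates across genes, on log2 CPM, lay between 0.953 in C1P and 0.993 in R5. C1P replicate 2 stood apart, with 4.09% of its counts on identifiers outside the chromosomes, against 0.730% in C1P replicate 1. None of the radicle and cotyledon marker families could be matched to the identifiers, so the tissue labels were not checked. For the PEG labels, 2 late embryogenesis abundant (LEA) genes and 2 oleosin genes named by the study were read. These encode protective and oil body proteins of the maturing seed. They had 164 to 1633 CPM in the PEG-treated radicle groups and 0.523 to 12.8 CPM in the untreated ones. The study chose them in part by their levels in these radicle libraries, with a rise in R1P against R1. Their radicle values are therefore no check of the radicle labels. Cotyledons took no part in that choice. There the same genes had 101 to 364 CPM in C5P and 0.308 to 6.29 CPM in C5, and each was also higher in C1P than in C1.

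The label that these genes rise in 5 mm radicles alone holds on the scale of the rule, and a fit on another scale gives other counts. The rule adds 1 CPM before taking logs, which hides changes among few reads. In an edgeR fit of the radicle libraries with TMM scaling and without that addition, of the 146 listed genes that passed the filter on low counts, 44 had a higher and 4 a lower level called in R1P against R1, beside 15.2% and 20.5% of all genes tested. The median level in R1P of those 44 genes was 0.900 CPM. In the same fit 145 were called higher and 0 lower in R5P against R5 (18.9% and 20.4% of all genes), 145 higher and 0 lower in R5P against R1P (15.3% and 3.82%), 42 higher and 2 lower in R5 against R1 (13.8% and 3.78%), and 78 higher and 0 lower for the PEG response of 5 mm minus that of 1 mm radicles (5.13% and 3.53%). The fit also differed from the rule in scaling, with TMM factors of 0.838 and 0.861 in R1P and 1.08 and 1.12 in R1. For a list made by the rule on TMM-scaled CPM, 31 of 146 were called higher and 8 lower in R1P against R1. The parts of the scaling and of the added 1 CPM were not tested. All of these counts follow from the values that chose the genes and are given with no reading. The 150 genes are called the R5P genes from here on.

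Levels of the R5P genes in radicles were low outside R5P, which the rule favours. Their median CPM was 16.9 in R5P, against 0.534 in R5, 0.434 in R1P and 0.169 in R1. Summed over the 150 genes, the R5P libraries held 7909 and 7268 CPM, against 828 and 873 in R5, 709 and 741 in R1P, and 624 and 561 in R1. Of the list, 105 genes reached 10 CPM in R5P and 16 reached 100 CPM, and the range there was 3.24 to 1021 CPM. In the other direction, 26 genes had at most 3 counts in each of the 6 libraries of R5, R1P and R1, and 14 of them had no count in any. CPM is not corrected for transcript length, so it is compared within a gene and not between genes.

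**Figure D1:**
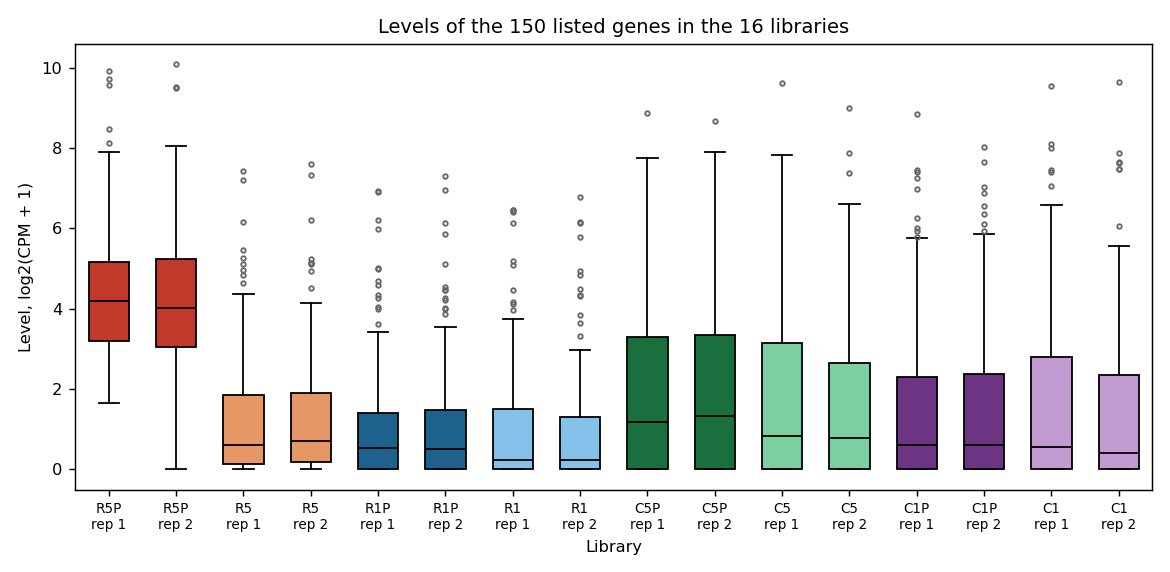
Box plot of the levels of the 150 genes, as log2(CPM + 1), in each of the 16 libraries (box, quartiles; line, median; whiskers, 1.5 times the box; points, genes beyond). Both R5P libraries stand above the other radicle libraries, as the selection requires. The cotyledon boxes reach higher than those of R5, R1P and R1. Upper quartiles of the group means were 3.94 to 9.44 CPM in cotyledon groups and 1.49 to 2.56 CPM in these radicle groups. The rule also favours low levels in R5, R1P and R1 but used no cotyledon library, so nothing is read from this contrast.

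The first 10 genes of the ranking had under 3 CPM in every radicle library outside R5P. MtrunA17Chr3g0087151, ranked first, had 74.5 and 78.3 CPM in R5P, against 0 and 0.0435 CPM in R5, 0.0436 and 0 CPM in R1P, and no count in R1 or any cotyledon library. MtrunA17Chr2g0327661 had 45.5 and 59.1 CPM in R5P, at most 0.131 CPM in any other radicle library and no count in cotyledons. MtrunA17Chr7g0221601 had 57.2 and 65.6 CPM in R5P, against 0.568 and 0.740 CPM in R5, and at most 0.432 CPM in R1P and R1. These genes, with MtrunA17Chr3g0115421 (31.2 and 35.1 CPM in R5P), MtrunA17Chr3g0087231 (27.6 and 37.0 CPM) and MtrunA17Chr3g0087211 (24.7 and 28.0 CPM), had under 1 CPM in all libraries other than R5P, and the R5P libraries lay close together.

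The other unannotated genes of the first 10 were also read in cotyledons, or in a single R5P library. MtrunA17Chr3g0131951 had 65.0 and 47.2 CPM in R5P and no count in R1P or R1, but 3.45 and 4.43 CPM in C5P against 14.8 and 11.5 CPM in C5. MtrunA17Chr3g0132061 had 134 and 59.1 CPM in R5P, against 1.00 and 1.19 CPM in R5, and its C5P level of 63.9 and 54.4 CPM overlapped the R5P range. MtrunA17Chr7g0238691 had 51.5 CPM in R5P replicate 1 and no count in R5P replicate 2. The last of them rests on 1 library.

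**Figure D2:**
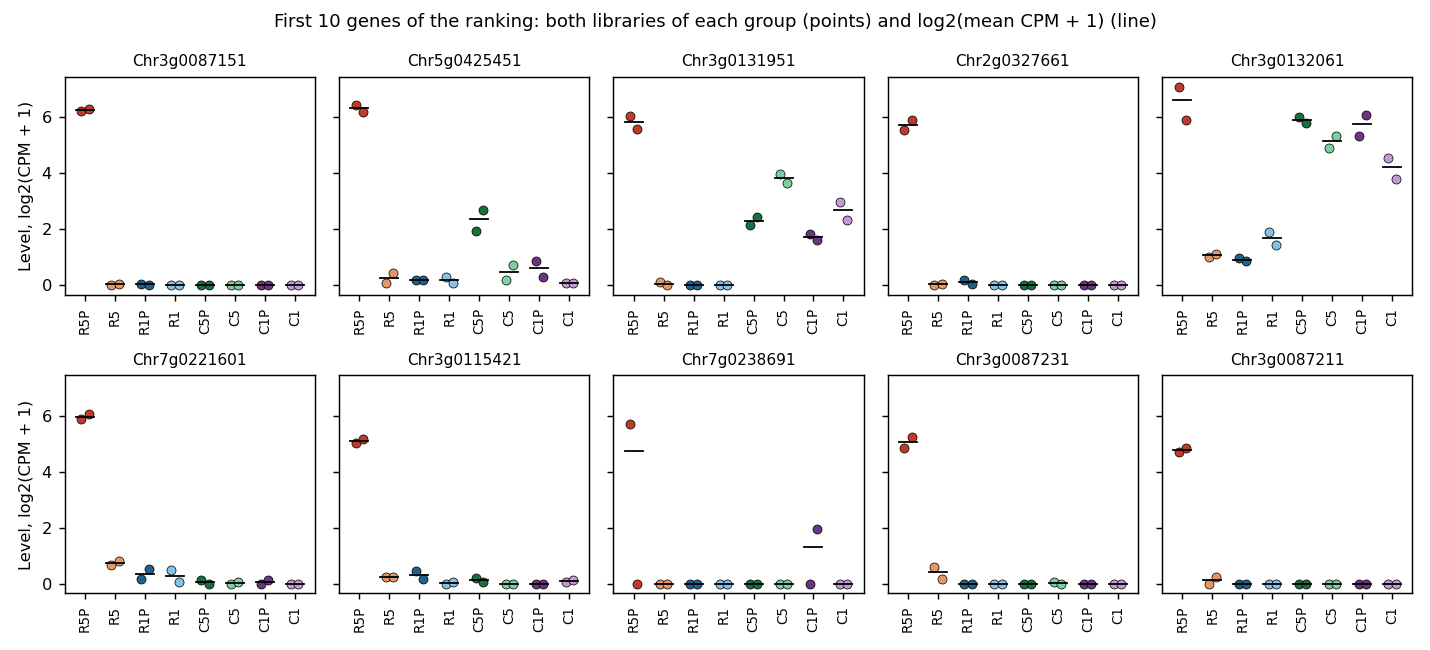
Levels of the first 10 genes of the ranking, as log2(CPM + 1), in the 8 groups (points, the 2 libraries; line, log2 of the group mean CPM + 1). For 9 genes both R5P points stand above all other radicle points, and MtrunA17Chr7g0238691 has 1 R5P library at 0.

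In 1 mm radicles the level difference R1P minus R1 of the R5P genes had a median of 0.07 on the log2(CPM + 1) scale, with 88 genes above 0, 36 below and 26 at exactly 0. R5P minus R5 had a median of 2.91. Without PEG the median difference R5 minus R1 was 0.19 on the same scale, and 16 genes had a level at least 1 higher in R5 than in R1 and 2 a level at least 1 lower, beside 8.09% and 1.49% of all genes with counts in radicles. In the edgeR fit, which does not add 1 CPM, the median log2 fold change in R5 against R1 was 0.82, beside -0.07 over all genes tested. R5 and R1 both entered the rule, so nothing is read from these values. MtrunA17Chr4g0074351, picked after its values were seen, is an example of the higher ones: it had 131 and 186 CPM in R5P, 30.1 and 33.3 CPM in R5, 4.76 and 8.25 CPM in R1P, and 3.07 and 3.31 CPM in R1. Its level thus stood in the order R1, R1P, R5 and R5P with no overlap between neighbouring groups. MtrunA17Chr8g0354121, picked in the same way, had 135 and 147 CPM in R5P, 8.52 and 7.44 CPM in R5, 0.611 and 1.30 CPM in R1P, and 0.175 and 0.473 CPM in R1.

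The genes with the most reads in R5P were not silent elsewhere. MtrunA17Chr2g0295091 had 959 and 1083 CPM in R5P, against 69.8 and 73.4 CPM in R5, 118 and 123 CPM in R1P, and 83.7 and 70.4 CPM in R1. MtrunA17Chr1g0147271 had 832 and 729 CPM in R5P, against 170 and 193 CPM in R5 and 122 and 156 CPM in R1P. MtrunA17Chr3g0124321 had 757 and 714 CPM in R5P, against 145 and 159 CPM in R5 and 62.6 and 68.6 CPM in R1P. For each of these genes the R5P libraries were several times as high as any other radicle library. MtrunA17Chr3g0121991 had 353 and 266 CPM in R5P, against 33.7 and 34.3 CPM in R5, and MtrunA17Chr1g0189071 had 279 and 253 CPM in R5P, against 37.4 and 29.8 CPM in R5.

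Of the 150 genes, 7 carry an annotation in the study's gene lists, and 143 are given here by identifier only. These 7 are annotated because they are in lists the study made from its chromatin assay, so they are no sample of the list's functions. MtrunA17Chr5g0425451, a putative glycosidase (an enzyme that cleaves sugar bonds) ranked 2, had 85.5 and 72.3 CPM in R5P and 0.0606 to 0.341 CPM in the other radicle libraries. MtrunA17Chr7g0232411, a putative hydroquinone glucosyltransferase, an enzyme class that attaches glucose to phenolic compounds, had 238 and 146 CPM in R5P, against 8.29 and 8.09 CPM in R5 and 6.33 and 6.72 CPM in R1P. MtrunA17Chr1g0181511, a putative peroxidase, had 41.5 and 47.1 CPM in R5P, against 5.37 and 6.21 CPM in R5 and 0.698 and 1.38 CPM in R1P. Its R5 libraries also stood above both 1 mm groups, and it was near 0 in cotyledons, with at most 0.310 CPM in C1.

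The dioxygenases on the list were lower in reads. MtrunA17Chr8g0351101, a putative oxoglutarate/iron-dependent dioxygenase, had 11.3 and 10.4 CPM in R5P, against 0.218 and 0.0870 CPM in R5 and 0.175 and 0.389 CPM in R1P. MtrunA17Chr3g0126741, a putative flavanone 3-dioxygenase, a flavonoid pathway enzyme of the same superfamily, had 6.76 and 8.24 CPM in R5P, against 0.262 and 0.218 CPM in R5, but more than R5P in C5P (17.6 and 18.0 CPM). The annotated regulator was MtrunA17Chr4g0076321, of the Hap3/NF-YB family, whose members are subunits of a complex that binds the CCAAT box. It had 17.1 and 16.5 CPM in R5P and at most 0.447 CPM in any other library. MtrunA17Chr5g0415791, a putative proton-dependent oligopeptide transporter of the MFS carrier superfamily, had 61.9 and 73.7 CPM in R5P, against 5.42 and 5.70 CPM in R5 and 7.99 and 9.16 CPM in R1P, and 37.5 to 86.8 CPM in the 8 cotyledon libraries.

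All but the peroxidase among the annotated genes came from the study's list of 708 genes with chromatin more open in R1P than in R1 and R5 (DT-DAR), a list made from a separate assay. It held 6 of the R5P genes, which is 4% of them and 0.847% of that list, whereas 1.6% of all genes with a chromosome are on it. For scale, it held 12 (8%) of 150 genes chosen by a rule of the same form for a rise in R1P alone, and 98 (65.3%) of 150 genes chosen for a rise in both PEG-treated radicle groups. The peroxidase was the 1 R5P gene in the copy at hand, of 308 genes and not complete, of the study's opposite list (DS-DAR), with chromatin less open in R1P than in R1 and R5. None of the R5P genes was in the study's cluster 1 of genes highest in R1P. None was in the copies at hand of its clusters 2, 5, 6 and 7 either. These clusters hold genes that the study called changed in R1P against R1 in the same radicle libraries. The rule kept R1P near R1 and below R5P, so the absence was largely set by the rule and nothing is read from it. No count is given here for the study's other clusters, 1 of which it describes as most induced in R5P.

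The R5P libraries gave like values for most of the list. In 145 genes both R5P libraries stood above all 6 other radicle libraries, as they did for 11% of genes with counts in radicles, a share from which nothing is read because the rule used these means. The absolute log2 ratio of the R5P libraries, taken on CPM + 1, had a median of 0.28, and 136 genes lay within 2-fold on that scale. The exceptions were led by 5 genes with no count in R5P replicate 2. MtrunA17Chr7g0221811 had 40.9 CPM in R5P replicate 1, MtrunA17Chr4g0064911 had 13.8 CPM, MtrunA17Chr4g0000691 had 6.93 CPM and MtrunA17Chr3g0144861 had 6.48 CPM, beside MtrunA17Chr7g0238691 above. All 5 hold counts that are not whole in 2 to 6 libraries, which occurs where Salmon divides reads between similar transcripts. Such counts occurred in 64 of the R5P genes (42.7%), beside 40.3% of all genes with counts, and their part in the libraries' difference was not tested.

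**Figure D3:**
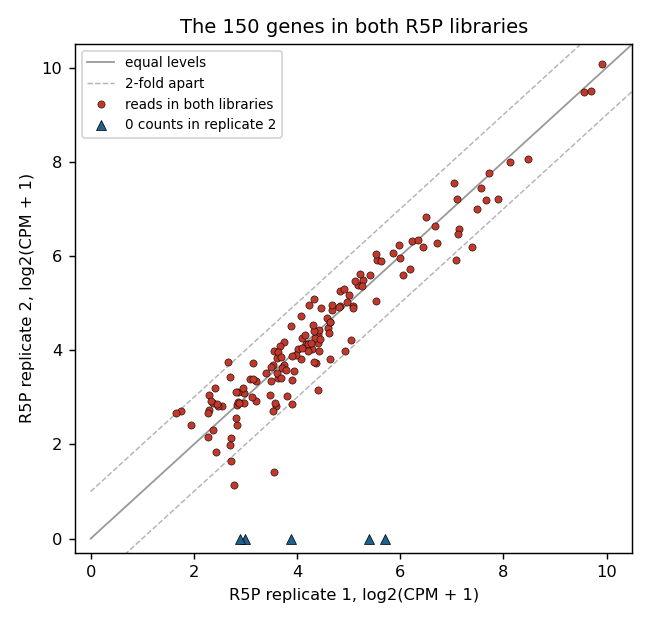
Each of the 150 genes in R5P replicate 1 (horizontal) and replicate 2 (vertical), both as log2(CPM + 1), with lines for equal levels and for a 2-fold distance on the plotted scale. Most points follow the line of equal levels, and the 5 genes without a count in replicate 2 lie on the horizontal axis at 6.48 to 51.5 CPM.

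The list ends without a gap in the values. The last genes inside were MtrunA17Chr5g0397181, MtrunA17Chr6g0452331 and MtrunA17Chr3g0144861, with ranking scores of 2.10, 2.10 and 2.08. The first outside were MtrunA17Chr4g0072791, MtrunA17Chr8g0339261 and MtrunA17Chr7g0258021, with 2.08, 2.07 and 2.07. A further 90 genes scored at least as high as the lowest listed gene but were left out because their level in R1P exceeded that in R1 by 1 or more, and 7 because it was lower by 1 or more. Of the genes left out for a higher R1P level, MtrunA17Chr6g0473941 was nearest the limit, with a difference of 1.03, and among listed genes MtrunA17Chr2g0283451 came closest with 0.97.

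The R5P genes lay on all 8 chromosomes. Chromosome 5 carried 24 of them (16.0%), against 11.1% of the genes with at least 10 counts, and chromosome 6 carried 2 (1.33%), against 6.85%. Counting listed genes within 10 identifiers of each other as neighbours, 20 genes (13.3%) fell into 8 runs. By the same count 21 of the genes chosen for R1P alone fell into 10 runs, and 28 of those chosen for both stages into 13. Runs can hold copies of a gene, and Salmon can divide reads between copies, so values within a run are uncertain to that extent.

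The longest run was on chromosome 4 and held 4 R5P genes. MtrunA17Chr4g0049911 had 19.2 and 12.4 CPM in R5P, and MtrunA17Chr4g0049951 had 29.6 and 14.8 CPM. MtrunA17Chr4g0049921 had 6.16 and 4.35 CPM in R5P, and MtrunA17Chr4g0049931 had 10.7 and 1.68 CPM. None of the 4 exceeded 0.287 CPM in an R5 library. R5P replicate 1 was the higher in all 4 genes. The gene between them, MtrunA17Chr4g0049941, was not on the list and averaged 86.9 CPM in R5P and 41.0 CPM in R5. The next run, on chromosome 3, joined the genes ranked 1, 9 and 10 (MtrunA17Chr3g0087151, MtrunA17Chr3g0087231 and MtrunA17Chr3g0087211). Between them MtrunA17Chr3g0087221 averaged 3.36 CPM in R5P and 20.6 CPM in R5, so a neighbour moved the other way. Another run, on chromosome 4, held MtrunA17Chr4g0030601, MtrunA17Chr4g0030681 and MtrunA17Chr4g0030731, with means of 22.3, 28.6 and 12.7 CPM in R5P and at most 0.414 CPM in R5.

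**Figure D4:**
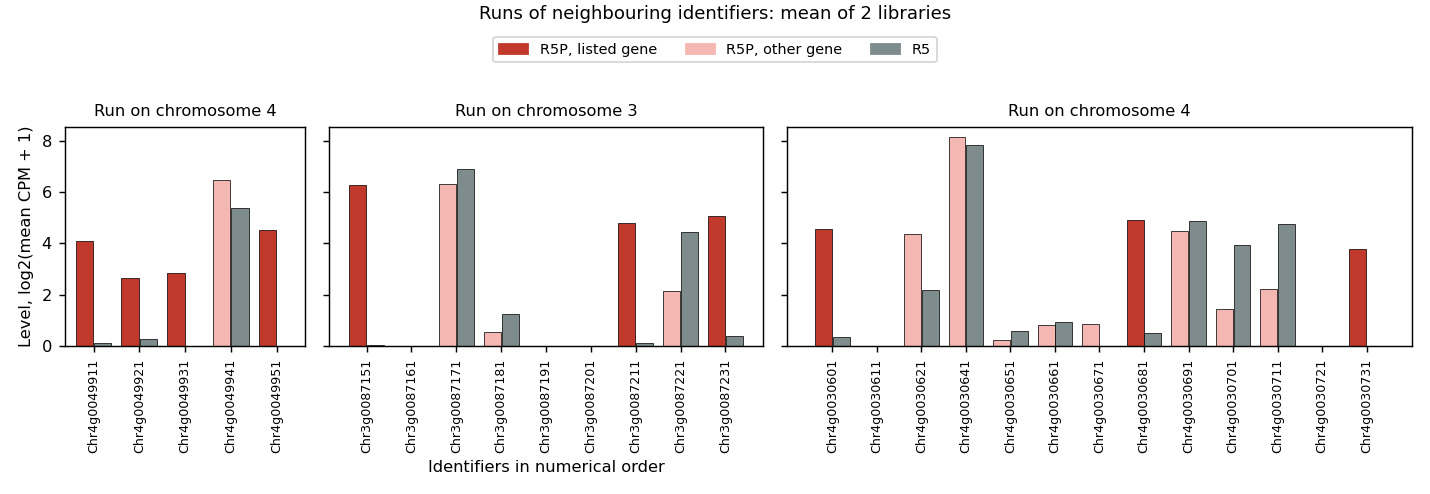
Mean level of each gene in the 3 longest runs, as log2(mean CPM + 1), in R5P (red, listed genes; pink, other genes) and R5 (grey), with identifiers in numerical order. Listed genes stand at 5.25 to 76.4 CPM in R5P and under 0.5 CPM in R5, and genes between them include some higher and some lower in R5P than in R5.

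Cotyledon libraries took no part in the choice of the genes. There the R5P genes had median levels of 1.27 CPM in C5P, 0.835 CPM in C5, 0.677 CPM in C1P and 0.323 CPM in C1, and their summed level was 2357 and 2372 CPM in C5P, 2495 and 1930 CPM in C5, 1832 and 1547 CPM in C1P, and 2583 and 2531 CPM in C1. The sums of C5P and C5 overlapped, and those of C1P lay below those of C1. These sums are scaled by library totals alone, whereas the TMM factors were 0.840 and 0.701 in C1P and 1.16 and 1.14 in C1. A single gene, MtrunA17Chr3g0121991, averaged 774 CPM in C1 and 358 CPM in C1P. No fall of the list is therefore read from the sums. A total of 35 genes had at most 3 counts in every cotyledon library, and 23 of these had none. At the other end, 21 genes were higher in a cotyledon group than in R5P: C5P was the highest of all 8 groups for 11 genes, C1 for 6, C5 for 2 and C1P for 2. R5P was the highest for the other 129.

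Some of these 21 genes had far more reads in cotyledons. MtrunA17Chr2g0318411 averaged 174 CPM in R5P, against 646 CPM in C5, which with MtrunA17Chr1g0207281 (10.7 CPM in R5P and 47.5 CPM in C5) makes the pair highest in C5. MtrunA17Chr1g0194801 averaged 9.72 CPM in R5P and 88.4 CPM in C1P. The other gene highest in C1P, MtrunA17Chr3g0096641, was closer, with means of 4.24 CPM in R5P and 7.14 CPM in C1P. Its C1P level rests on 1 library, with 0 CPM in C1P replicate 1 and 14.3 CPM in C1P replicate 2, the library that stood apart. In C1 it had 6.44 and 0 CPM, and its counts were not whole in 4 libraries. MtrunA17Chr3g0121991 averaged 309 CPM in R5P and 774 CPM in C1. The list is thus defined by radicles and is not a list of radicle genes. MtrunA17Chr1g0207281 and the genes highest in C1P were named after their values were seen.

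In cotyledons of the 5 mm stage, more R5P genes rose with PEG than fell. Of the 94 genes that passed the filter on low counts in cotyledons, 31 rose in C5P against C5 and 6 fell (edgeR quasi-likelihood test, adjusted p under 0.05 and over 2-fold), whereas 9.02% of all genes tested rose and 12.1% fell. The median log2 fold change of the 94 was 0.69, beside -0.05 over all genes tested. The other 56 genes were too low to test and are not counted either way. The p-values rest on 2 samples per group, with the spread of each gene estimated over all cotyledon groups together.

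The largest rise was that of MtrunA17Chr3g0106111, which had 30.9 and 37.9 CPM in C5P, against 0.220 and 0 CPM in C5 (log2 fold change 8.30 ± 0.74 SE, adjusted p = 0.00036). Its C5P level was near its R5P level of 35.3 and 40.6 CPM. MtrunA17Chr8g0351101, the dioxygenase, had 2.60 and 2.13 CPM in C5P, against 0 and 0.176 CPM in C5 (4.76 ± 0.81, adjusted p = 0.004), and MtrunA17Chr4g0073331 had 11.8 and 12.2 CPM, against 0.352 and 0.614 CPM (4.72 ± 0.46, adjusted p = 0.00028). MtrunA17Chr8g0339061 rose by 4.22 ± 1.14 (adjusted p = 0.034) and MtrunA17Chr7g0248911 by 4.11 ± 0.92 (adjusted p = 0.014), this gene with 4 counts in C5. The glycosidase MtrunA17Chr5g0425451 rose as well, with 2.86 and 5.38 CPM in C5P against 0.133 and 0.659 CPM in C5 (3.50 ± 0.82, adjusted p = 0.017), as did the flavanone 3-dioxygenase MtrunA17Chr3g0126741 (1.23 ± 0.28, adjusted p = 0.014). The transporter MtrunA17Chr5g0415791 (0.58 ± 0.30, adjusted p = 0.19) and the glucosyltransferase MtrunA17Chr7g0232411 (-0.27 ± 0.38, adjusted p = 0.64) did not pass, and the NF-YB and peroxidase genes were not tested.

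The genes that fell in C5P moved opposite to their selection in radicles. MtrunA17Chr2g0318411 had 103 and 93.1 CPM in C5P, against 786 and 507 CPM in C5 (log2 fold change -2.65 ± 0.28, adjusted p = 0.00045). MtrunA17Chr6g0479131 had 4.92 and 4.96 CPM in C5P, against 42.1 and 18.4 CPM in C5 (-2.55 ± 0.45, adjusted p = 0.0048), and MtrunA17Chr5g0417341 had 3.55 and 3.93 CPM, against 19.6 and 14.5 CPM (-2.10 ± 0.35, adjusted p = 0.0036). In each the C5P libraries lay several-fold below C5. MtrunA17Chr8g0355721 had 0.141 and 0.186 CPM in C5P, against 1.33 and 1.49 CPM in C5 (-3.03 ± 0.69, adjusted p = 0.014). MtrunA17Chr1g0205171 had 3 counts in C5P and 83 in C5 (adjusted p = 0.037), a ratio of 27.3 with an exact 95% interval of 9.02 to 135 for counting error.

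Leaving out a library changes the test for every gene, and no count over all genes is set beside those below. The count of genes that rose in C5P was lower without any one of the C5P and C5 libraries. It was 13 without C5P replicate 2 and 19 without C5P replicate 1, and 20 without either C5 library, and the count that fell was 2 without C5P replicate 1 and 3 without C5 replicate 1. Of the genes above, MtrunA17Chr8g0339061 lost its call without either C5P library or C5 replicate 1 (adjusted p = 0.062 to 0.12), and also with the replicate number as a block (0.072), MtrunA17Chr7g0248911 without C5P replicate 1 or C5 replicate 1 (0.064 and 0.082), MtrunA17Chr6g0479131 without C5P replicate 1 (0.053), MtrunA17Chr8g0355721 without any one of the 4 C5P and C5 libraries (0.073 to 0.13), and MtrunA17Chr1g0205171 without any one of these or of the C1 libraries (0.053 to 0.16).

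At the 1 mm stage, cotyledons gave 25 R5P genes that rose in C1P against C1 and 10 that fell, beside 13.8% and 14.9% of all genes tested, and the median log2 fold change was 0.49, beside -0.08 over all genes. This split depended on scaling. With library totals in place of TMM, which moved the median of all genes by -0.58, 12 rose and 21 fell. Of all genes tested, 1590 then rose and 6382 fell. Genes that rose were thus 36.4% of the called R5P genes and 19.9% of all called genes, beside 71.4% and 48.0% with TMM. Without C1P replicate 2, the library that stood apart, 16 rose and 10 fell. Without C1 replicate 1 or 2, 13 or 9 rose and 5 fell in either case.

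Among the genes that rose, MtrunA17Chr4g0052001 had 19.7 and 30.6 CPM in C1P, against 2.43 and 2.02 CPM in C1 (log2 fold change 4.07 ± 0.44, adjusted p = 0.00044). MtrunA17Chr4g0073331 had 4.81 and 5.87 CPM in C1P, against 0.752 and 0.351 CPM in C1 (3.83 ± 0.44, adjusted p = 0.00063). For the next genes C1 had no count, so the fold is a bound on a floor of 3 counts per library, on CPM scaled by library totals. MtrunA17Chr5g0448271 had 0.750 and 1.14 CPM in C1P (at least 7.14-fold higher, adjusted p = 0.0014), MtrunA17Chr3g0106111 had 1.10 and 0.710 CPM (at least 6.86-fold higher, adjusted p = 0.0047), and MtrunA17Chr7g0242551 had 10 counts in all (at least 1.72-fold higher, adjusted p = 0.018). MtrunA17Chr7g0242551 lost its call without either C1 library or C1P replicate 1 (adjusted p = 0.085, 0.090 and 0.050).

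Of the genes that fell in C1P, MtrunA17Chr6g0479131 had 4.59 and 6.11 CPM, against 95.2 and 65.8 CPM in C1 (log2 fold change -3.34 ± 0.46, adjusted p = 0.0014), so it fell in cotyledons at both stages. MtrunA17Chr4g0000691 had no count in C1P, against 25.0 and 7.67 CPM in C1. On CPM scaled by library totals it was at least 119-fold lower, and TMM scaling would make that bound smaller. Its adjusted p was 0.0036 in the edgeR fit with TMM, but 0.081 with DESeq2. This gene is one of those read in a single R5P library. MtrunA17Chr7g0267901 had 0.529 and 0.0947 CPM in C1P, against 4.51 and 2.28 CPM in C1 (-2.89 ± 0.69, adjusted p = 0.014), but not without C1 replicate 1 (adjusted p = 0.096). MtrunA17Chr4g0057641 had 2.21 and 1.28 CPM in C1P, against 12.8 and 7.81 CPM in C1 (-2.03 ± 0.35, adjusted p = 0.0038). MtrunA17Chr1g0177171 had 7.41 and 1.52 CPM in C1P, against 21.4 and 21.6 CPM in C1 (-1.77 ± 0.52, adjusted p = 0.031), and its call was lost without any one C1, C5 or C5P library (adjusted p = 0.050 to 0.12).

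The cotyledon responses at the 2 stages come from separate libraries. A rise at both stages was called in 14 genes, which is 45.2% of those that rose in C5P and 56.0% of those that rose in C1P, and a fall at both in 3. Over all genes tested, 5.92% rose and 6.85% fell at both stages, and the genes that rose at both made up 65.6% of those that rose in C5P and 43.0% of those that rose in C1P. In all, 42 of the 94 tested R5P genes rose at 1 stage or more and 40 were called at neither, beside 16.9% and 63.1% of all genes tested. MtrunA17Chr2g0323611 was the 1 R5P gene called in opposite directions (higher in C5P and lower in C1P, as were 0.0824% of all genes tested), with 34.3 and 47.8 CPM in C5P against 15.6 and 13.6 CPM in C5 (log2 fold change 1.59 ± 0.26, adjusted p = 0.0033), and 13.0 and 11.4 CPM in C1P against 41.2 and 35.5 CPM in C1 (-1.10 ± 0.26, adjusted p = 0.013).

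**Figure D5:**
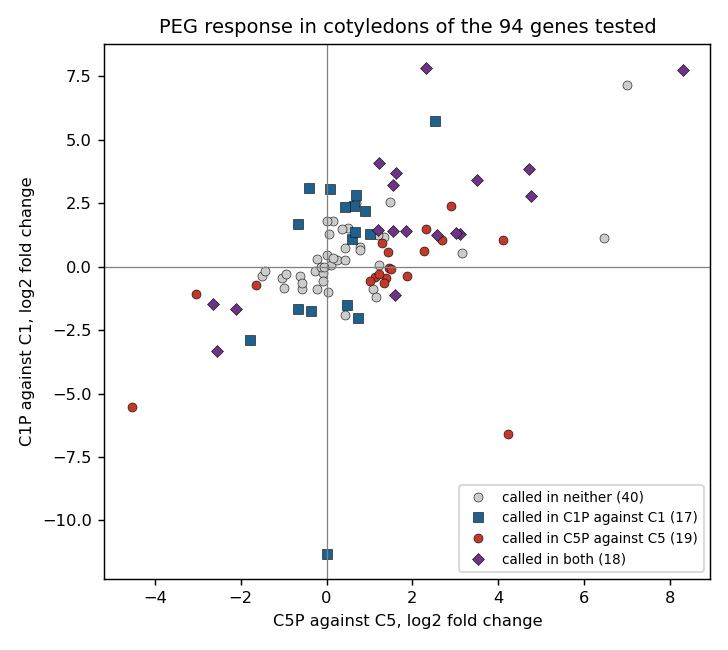
Fitted log2 fold changes of the 94 tested genes in C5P against C5 (horizontal) and in C1P against C1 (vertical), with the calls marked. The genes called in both comparisons lie mostly at upper right, with 1 of them at lower right. The lowest point is MtrunA17Chr4g0000691, whose fold change has no finite value because C1P had no count.

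The difference between the stages was tested directly, as the PEG response in C5P against C5 minus that in C1P against C1. It was called higher at the 5 mm stage for 2 R5P genes and lower for 0, beside 0.559% and 0.663% of all genes tested. At an unadjusted p under 0.05, 22 were higher and 10 lower, beside 10.1% and 10.8% of all genes tested. DESeq2 called 11 higher and 4 lower of the 84 to which it gave an adjusted p, beside 3.98% and 4.3% of all genes. The genes called by edgeR were MtrunA17Chr4g0057641 (log2 difference 2.75 ± 0.48, adjusted p = 0.045), with 9.58 and 8.82 CPM in C5P against 6.29 and 5.53 CPM in C5, and MtrunA17Chr2g0323611 (2.69 ± 0.36, adjusted p = 0.023). The count was 0 without any one of the C5P, C5 or C1 libraries, 1 without C1P replicate 2 and 10 without C1P replicate 1. With the replicate number as a block neither gene was called (adjusted p = 0.091 and 0.076). With 2 libraries per group a call of this kind needs a large difference.

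Between the stages themselves, 14 R5P genes were higher in C5 than in C1 and 7 lower (5.7% and 2.92% of all genes tested), and 19 were higher in C5P than in C1P and 2 lower (4.01% and 2.21%). These comparisons share libraries with those above. The median log2 fold changes were 0.22 and 0.55, beside 0.01 and 0.00 over all genes, and with genes at 0 in a group set to their bound 0.20 and 0.51. MtrunA17Chr3g0124321, among the genes with the most reads in R5P, had 73.7 and 54.7 CPM in C5P against 12.9 and 6.54 CPM in C1P (2.34 ± 0.32, adjusted p = 0.01). MtrunA17Chr2g0295091 went the other way, with 54.2 and 75.8 CPM in C5P against 174 and 199 CPM in C1P (-1.92 ± 0.31, adjusted p = 0.017). The count of 19 was 4 without either C5P library and 9 without C1P replicate 2, and that of 2 lower in C5P was 6 without C1P replicate 1. The count of 14 was 3 without C1 replicate 2 and 8 without C1 replicate 1 or C5 replicate 1, and that of 7 lower in C5 was 1, 2 and 3 without C1 replicate 1, C1 replicate 2 and C5 replicate 2.

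For scale, the lists chosen by rules of the same form gave other counts in cotyledons. The R1P genes were chosen for a rise with PEG in 1 mm radicles alone, on the scale of the rule. In the edgeR fit of the radicles, 80 of the 150 were called higher and 2 lower in R5P against R5 (18.9% and 20.4% of all genes). Those calls use the values that chose the genes. Of the 135 R1P genes tested in cotyledons, 43 rose and 4 fell in C5P, and 83 rose and 0 fell in C1P (3 at an unadjusted p under 0.05). Of the genes raised in both PEG-treated radicle groups, 140 of the 149 tested rose in C5P and 146 in C1P, with 0 that fell, also at an unadjusted p under 0.05. The R5P genes thus had 31 of 94 and 25 of 94 that rose, and the lists were not tested against each other.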

How the data were processed

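RNA of radicles and cotyledons was sequenced as single reads of 50 bases. Per the labels and the methods of the study, the authors checked reads with FastQC and used Salmon version 1.2 to assign them to transcripts of the Mtv5 genome, and they deposited an estimated count per gene, unscaled. Estimated counts need not be whole and were rounded to whole numbers before testing. Salmon divides reads of similar genes, so that levels of gene copies are less certain. The number of unused sample columns was 0, and of the study's chromatin data only its gene lists were used.

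Samples were grouped by their titles. The R5P genes and all gene lists were chosen with earlier results of these data known. The choice used all 4 radicle groups, so radicle comparisons are descriptions, and tests were made in cotyledons. One edgeR model (version 4.0.16, R version 4.3.3, quasi-likelihood test, TMM, filterByExpr, Benjamini-Hochberg adjustment) covered the 8 cotyledon libraries and 23060 genes, and another, for description, the 8 radicle libraries and 23793 genes. A call required both an adjusted p below 0.05 and a log2 fold change beyond 1 in either direction. The statistical scripts were tested on simulated data.

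Library totals of 22012976 to 23257652 put a floor of 3 counts at 0.129 to 0.142 CPM. Named genes were the first 10 of the ranking, up to 5 called in each direction per cotyledon comparison with the largest change and no overlap, the 5 with the most reads in R5P, the 5 whose R5P libraries differed most, genes with few cotyledon counts, annotated genes, those next to the end of the list and runs of neighbours. Alternatives were library totals or RLE factors for scaling, no filter, DESeq2 version 1.42.0, the replicate number as a block, other thresholds, other sets of libraries and, for the list itself, another scaling, pseudocount or length. Annotations came from the study's tables, since 0 of the identifiers matched the RefSeq gene table, and no sequences or coordinates were used.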

Additional observations from a re-analysis of the deposited data

Results flagged for a closer look

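Genes whose response to PEG differed between stages or tissues were singled out. Between the cotyledon stages the difference was tested: the response in C5P against C5 exceeded that in C1P against C1 by 2.75 on the log2 scale for MtrunA17Chr4g0057641 (adjusted p = 0.045, edgeR) and by 2.69 for MtrunA17Chr2g0323611 (adjusted p = 0.023, edgeR). For MtrunA17Chr4g0057641 the adjusted p under the alternatives that ended the call was 0.081 to 0.21, and for MtrunA17Chr2g0323611 it was 0.055 to 0.14.

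Of the 6 R5P genes called lower in C5P against C5, the 5 with the largest change are given here. Each was lower in both C5P libraries than in both C5 libraries and higher in both R5P libraries than in both R5 libraries, a pattern not counted among genes that were not called. The log2 fold change in C5P against C5 was -4.53 for MtrunA17Chr1g0205171, where C5P held 3 counts, -3.03 for MtrunA17Chr8g0355721, -2.65 for MtrunA17Chr2g0318411, -2.55 for MtrunA17Chr6g0479131 and -2.10 for MtrunA17Chr5g0417341. The difference between tissues was not tested, and the direction in radicles was fixed by the choice of the genes.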

How the results depend on the processing

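None of the 22 named changes in cotyledons reversed: of 352 values under alternatives, 302 kept direction and call and 50 kept direction only. Those 22 were picked as called and largest in these same data, so keeping direction is no support for them. The 352 values include those with the crossed replicate numbers described below. The cause of the moves below was not tested except where stated. Against 31 and 6 in C5P against C5, 25 and 10 in C1P against C1, 2 and 0 for the stage difference, 14 and 7 in C5 against C1, and 19 and 2 in C5P against C1P, a TREAT test beyond 2-fold gave 9 and 3, 10 and 3, 0 and 0, 7 and 2, and 4 and 0. The first 75 genes alone, being fewer, gave 15 and 3, 12 and 3, 0 and 0, 6 and 3, and 10 and 2. TREAT ended the calls of MtrunA17Chr8g0339061 (adjusted p = 0.088), MtrunA17Chr1g0205171 (0.096) and MtrunA17Chr8g0355721 (0.051) in C5P against C5, and of MtrunA17Chr7g0267901 (0.054) and MtrunA17Chr1g0177171 (0.16) in C1P against C1. Library totals gave 12 and 21 in C1P against C1, 5 higher for the stage difference and 30 higher in C5P against C1P. They moved the median of all genes by 0.48 for the stage difference and by 0.42 in C5P against C1P. Over all genes they gave 1590 and 6382, 229 higher and 1898 higher, beside 3171 and 3442, 129 and 924 with TMM. DESeq2 gave 11 and 4 for the stage difference, no filter gave 9 and 4, and 5 lower in C5P against C1P. One model of all 16 libraries, which tests all 150 genes, gave 12 and 4 for the stage difference, 23 and 12 in C5 against C1, and 30 higher in C5P against C1P. The genes it adds failed the filter in cotyledons alone and enter by their radicle reads, where they were chosen to be high in R5P. For TREAT, no filter and the model of 16 libraries, counts over all genes are not set beside these, so nothing is read from the moves. The list made with TMM-scaled CPM gave 4 higher for the stage difference.

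Replicate numbers are shared between groups but not said to mark a batch. Same-numbered deviations correlated at -0.70 between C5P and C5 and at -0.50 between C1P and C1. With the replicate block, the counts were 24 and 6, 17 and 10, 0 and 0, 12 and 4, and 12 and 0, in the order above. With crossed numbers in the replicate block, chosen after seeing the data, they were 34 and 7, 28 and 11, 13 and 6, 17 and 13, and 28 and 6. Counts over all genes are not set beside those of either block, so nothing is read from the moves.

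Leaving out each library in turn gave 13 to 34 that rose and 2 to 7 that fell in C5P against C5, 9 to 26 and 5 to 11 in C1P against C1, 0 to 10 and 0 to 2 for the stage difference, 3 to 15 and 1 to 8 in C5 against C1, and 4 to 19 and 0 to 6 in C5P against C1P. A lone sample was then taken to vary like the other groups. The test then changes for all genes, and counts over all genes are not set beside these. Of the 150 genes, 130 to 147 stayed on the list without a radicle library and 107 stayed throughout, 133 stayed with TMM-scaled CPM, 150 with sums over all identifiers, 106 with a pseudocount of 0.25, 91 with a pseudocount of 4 and, by construction, 75 in the first 75. At this depth, genes at 3 counts or fewer show no difference.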
